A study of Arabidopsis thaliana with 6 samples.

Results

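The stomatal lineage genes described here are 9 Arabidopsis thaliana loci, taken by locus identifier from the deposited table of gene levels, which holds 37869 genes. They are the transcription factors SPCH (AT5G53210), MUTE (AT3G06120), FAMA (AT3G24140) and SCRM (AT3G26744, also called ICE1), the secreted peptides EPF2 (AT1G34245), EPF1 (AT2G20875) and STOMAGEN (AT4G12970), the receptor-like protein TMM (AT1G80080) and the protease SDD1 (AT1G04110). They were chosen by name and not by a filter on their values, although earlier results of these data were known. All 9 had a level above 0 in every library, and 8 of them were among the 20100 genes tested, whose levels averaged 1 TPM or more (TPM, a level per transcript length, with equal totals in all libraries). The ninth, SDD1, lay below that mean.

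RNA came from the shoots of seedlings of the Col-0 accession, 3 weeks old and not stressed, and was sequenced in 6 libraries, 3 from wild type and 3 from sme1-1, a mutant in the same background that the sample labels spell smeb-1. Plants of both genotypes grew in vitro on MS medium with 1% sucrose, in days of 16 h of light and 8 h of dark. SME1 encodes a core protein of the spliceosomal small nuclear ribonucleoproteins, and the series title connects its loss with tolerance of oxidative stress. The mutant is a single allele, and separately grown plants are not named as the source of its 3 libraries or of those of wild type. The p-values therefore measure the spread between libraries alone, and part of that spread may be technical. SME1 itself, the check of the genotype, stood at 76.9, 73.9 and 75.3 TPM in the wild-type libraries, against 36.1, 31.6 and 29.7 TPM in sme1-1 (log2 change -1.19, limma adjusted p = 4.4e-05). The depth of the libraries is unknown, because TPM keep none. Libraries grouped by genotype, with correlations across genes of 0.982 or more within a genotype and 0.903 or less between genotypes.

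Stomata, the pores through which leaves exchange gas, arise from a lineage of epidermal cells in which related basic helix-loop-helix proteins act in turn. SPCH starts the asymmetric divisions of the lineage, MUTE ends them and commits the cell to become a guard mother cell, and FAMA halts division in the young guard cells, each as a partner of SCRM or of its close relative SCRM2. Peptides secreted by neighbouring cells bind receptor kinases of the ERECTA family together with TMM and, through a MAP kinase cascade, hold SPCH in check. EPF2 acts on entry to the lineage, EPF1 on later spacing divisions, and STOMAGEN, made in the mesophyll, competes with them and promotes stomata.

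None of the 8 tested genes passed the test at an adjusted p of 0.05 on the deposited TPM (limma, an empirical Bayes test on log2(TPM + 1) fitted to all genes), and 1 of them, MUTE, had an unadjusted p under 0.05. Of all genes tested, 67.3% passed, and those higher in sme1-1 made up 47.3%. Among genes at levels like theirs the shares that passed were alike, 62.6% of 4725 genes with a mean of 1 to 5 TPM and 67.2% of 11931 genes with a mean of 5 to 50 TPM. All 8 had a log2 change under 0.5 in size, as did 56.4% of all genes, and the median size of their changes was 0.13 against 0.42 for all genes. The libraries of the genotypes did not overlap for 2 of the 8, beside 73.5% of all genes. Summed over the 9 loci, the level was 109.2, 104.9 and 111.5 TPM in wild type, against 107.4, 113.8 and 107.4 TPM in sme1-1, so the totals of the genotypes overlapped. In RNA from whole shoots, fewer cells of the lineage and less of a transcript per cell cannot be told apart.

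**Figure D1:**
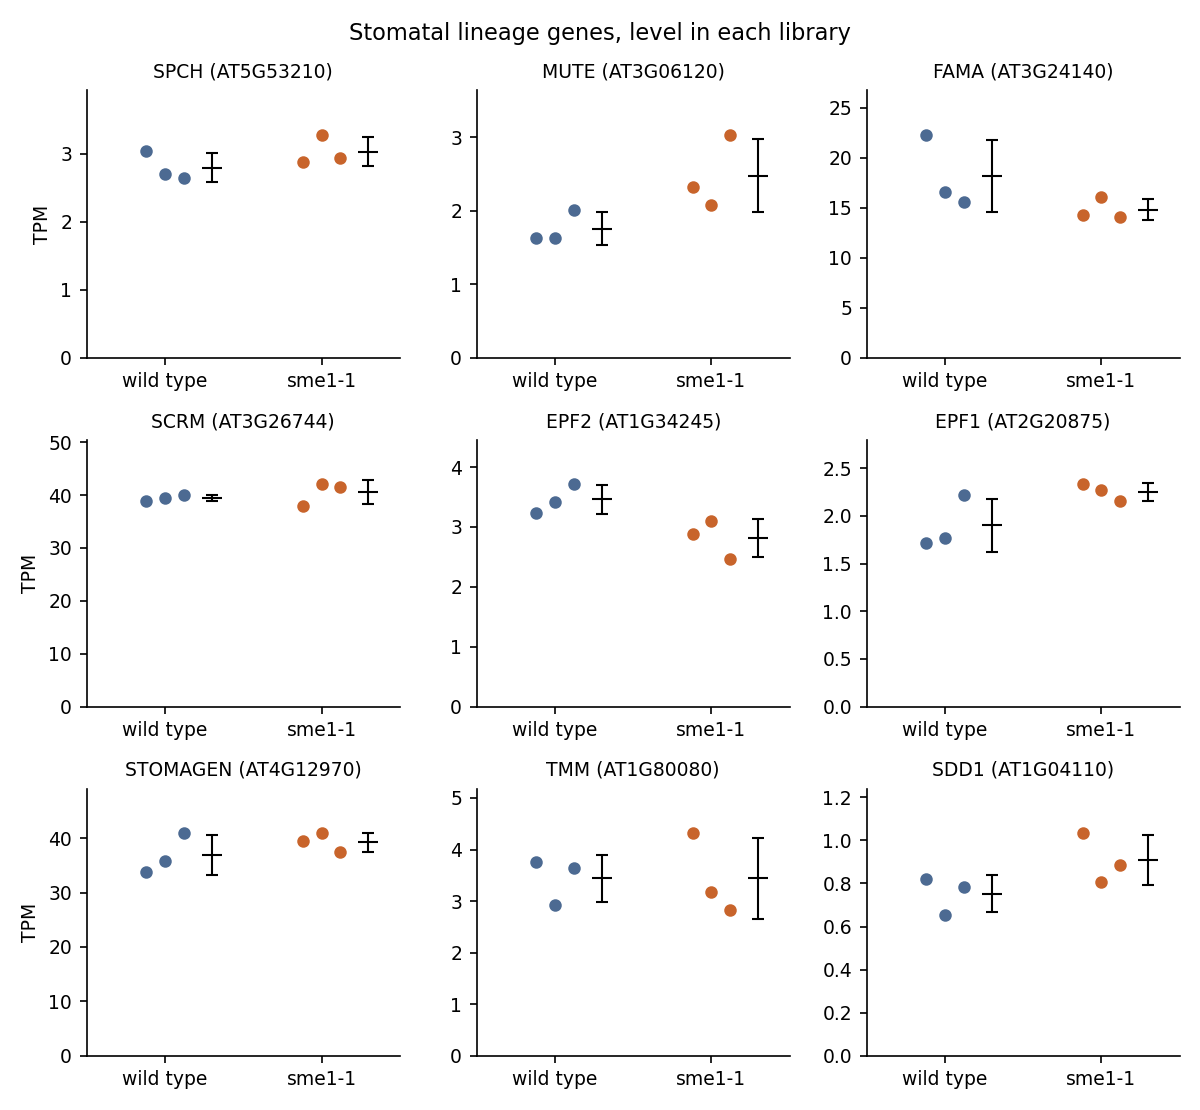
Level in TPM (vertical axes, each starting at 0) of each of the 9 stomatal lineage genes in the 3 wild-type and 3 sme1-1 libraries; points are libraries in the order 1, 2, 3, and the bars beside them are the mean ± SD. The points of the genotypes are apart for MUTE (1.63 to 2.01 against 2.08 to 3.03 TPM) and EPF2 (3.24 to 3.72 against 2.47 to 3.10 TPM) and overlap for the other 7 genes.

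The size of these changes depended on how the libraries were set against each other. On deposited TPM the median change of all genes was 0.22 on the log2 scale in favour of sme1-1, while the median of the 8 was 0.06. Relative to the median gene, MUTE was the only one of the 8 that was higher in sme1-1, by 0.11, and FAMA and EPF2 were the lowest, at -0.48 and -0.44. After median-of-ratios scaling, which brings the median gene close to no change (-0.03), 3 of the 8 passed as lower, namely FAMA, EPF2 and SCRM, and none as higher, while 35.3% of all genes passed as lower. After quantile normalization 5 passed as lower, namely SPCH, FAMA, EPF2, EPF1 and TMM, and none as higher, while 36.3% of all genes passed as lower. FAMA and EPF2 were the only genes of the 8 that passed as lower under both.

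**Figure D2:**
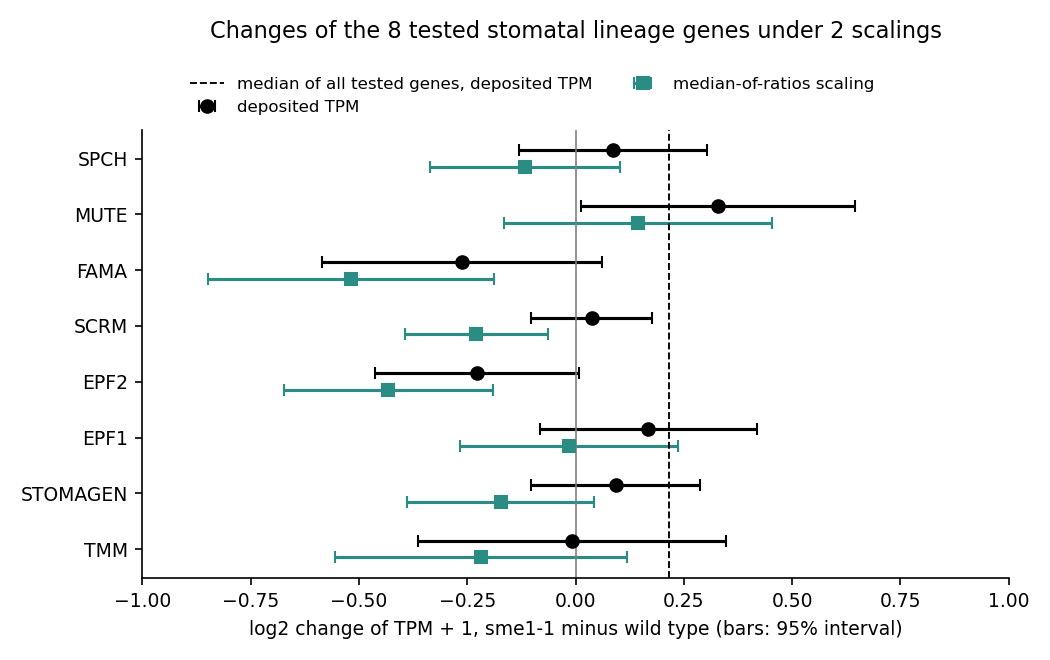
Difference of log2(TPM + 1) between genotypes, sme1-1 minus wild type (horizontal axis), for the 8 tested genes on deposited TPM (black circles) and after median-of-ratios scaling (green squares), with 95% intervals; the dashed line is the median of all tested genes on deposited TPM, 0.22. On deposited TPM every interval but that of MUTE (0.01 to 0.64) includes 0, and after median-of-ratios scaling those of FAMA, SCRM and EPF2 lie wholly below 0.

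Among the transcription factors, SPCH (chr5:21586219-21589255, minus strand of TAIR10.1), which opens the lineage, was read at 3.04, 2.71 and 2.64 TPM in wild-type libraries 1, 2 and 3, against 2.88, 3.28 and 2.94 TPM in sme1-1 libraries 1, 2 and 3. The genotypes overlapped, with the highest value in sme1-1 library 2 and the lowest in wild-type library 3. The means, here and below with the SD over 3 libraries, were 2.80 ± 0.215 TPM in wild type against 3.03 ± 0.215 TPM in the mutant, and the log2 change was 0.09 with a 95% interval of -0.13 to 0.30 (limma adjusted p = 0.425). Under the other scalings the sign turned, to -0.12 after median-of-ratios scaling (adjusted p = 0.297) and to -0.42 after quantile normalization (adjusted p = 0.00943).

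MUTE (chr3:1846442-1848259, plus strand), which ends the asymmetric divisions, had 1.63, 1.63 and 2.01 TPM in wild type, against 2.32, 2.08 and 3.03 TPM in sme1-1. Every sme1-1 library lay above every wild-type library, by a margin of under 0.1 TPM between sme1-1 library 2 and wild-type library 3, and sme1-1 library 3 stood above the rest. The means were 1.76 ± 0.220 and 2.48 ± 0.495 TPM, a log2 change of 0.33 with an interval of 0.01 to 0.64 (limma adjusted p = 0.0634). The change was 0.14 after median-of-ratios scaling (adjusted p = 0.354) and took the other sign, -0.21, after quantile normalization (adjusted p = 0.171). Leaving out single libraries moved the change between 0.22 without sme1-1 library 3 (limma adjusted p = 0.187) and 0.41 without sme1-1 library 2, the only such fit in which MUTE passed (adjusted p = 0.0412).

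FAMA (chr3:8715118-8718211, minus strand), which acts last, was read at 22.3, 16.6 and 15.6 TPM in wild type, against 14.3, 16.1 and 14.1 TPM in sme1-1. The genotypes overlapped through sme1-1 library 2, and wild-type library 1 stood well above the other 5. The means were 18.2 ± 3.62 and 14.8 ± 1.08 TPM, a log2 change of -0.26 with an interval of -0.59 to 0.06 (limma adjusted p = 0.126), and without wild-type library 1 it was -0.11 (adjusted p = 0.274). After median-of-ratios scaling FAMA passed as lower (-0.52, interval -0.85 to -0.19, adjusted p = 0.0144).

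SCRM (chr3:9832667-9835279, minus strand), the shared partner, had 38.9, 39.4 and 40.0 TPM in wild type, against 38.0, 42.1 and 41.6 TPM in sme1-1. By its mean it was the most abundant of the 9 genes in both genotypes. STOMAGEN stood above it in wild-type library 3 (40.9 TPM) and in sme1-1 library 1 (39.4 TPM). The wild-type libraries of SCRM lay inside the range of its sme1-1 libraries. With means of 39.5 ± 0.554 and 40.5 ± 2.26 TPM SCRM had the narrowest interval of the 8, -0.10 to 0.18 around a log2 change of 0.04 (limma adjusted p = 0.596). After median-of-ratios scaling it passed as lower (-0.23, adjusted p = 0.0238), and after quantile normalization it did not (-0.06, adjusted p = 0.445). SCRM2, whose product can stand in for SCRM, was named here after its value was seen, with 35.3 ± 2.97 and 35.8 ± 2.57 TPM (0.02, limma adjusted p = 0.815).

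Of the peptides, EPF2 (chr1:12472868-12473974, plus strand), which limits entry to the lineage, was read at 3.24, 3.42 and 3.72 TPM in wild type, against 2.88, 3.10 and 2.47 TPM in sme1-1. All sme1-1 libraries lay below all wild-type libraries. The means were 3.46 ± 0.241 and 2.82 ± 0.318 TPM, a log2 change of -0.23 with an interval of -0.46 to 0.01 (limma adjusted p = 0.0798). It passed as lower after median-of-ratios scaling (-0.43, adjusted p = 0.00839) and after quantile normalization (-0.73, adjusted p = 0.00114), with the same sign as on deposited TPM.

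EPF1 (chr2:8982863-8983814, minus strand), the spacing peptide, had 1.72, 1.77 and 2.22 TPM in wild type, against 2.33, 2.27 and 2.15 TPM in sme1-1. Wild-type library 3 fell within the range of sme1-1, and the other wild-type libraries lay below it. The change was 0.17 with an interval of -0.08 to 0.42 (means 1.90 ± 0.278 and 2.25 ± 0.0911 TPM, limma adjusted p = 0.193), and its sign turned to -0.02 after median-of-ratios scaling and to -0.37 after quantile normalization (adjusted p = 0.905 and 0.0151).

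STOMAGEN (chr4:7585869-7587099, minus strand), the peptide that promotes stomata, was read at 33.8, 35.8 and 40.9 TPM in wild type, against 39.4, 40.9 and 37.4 TPM in sme1-1. The genotypes overlapped, with wild-type library 3 close to the highest sme1-1 library. The means were 36.8 ± 3.65 and 39.2 ± 1.77 TPM, a log2 change of 0.09 with an interval of -0.10 to 0.29 (limma adjusted p = 0.344), and -0.17 after median-of-ratios scaling (adjusted p = 0.130).

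TMM (chr1:30127819-30129649, minus strand), the receptor-like protein without a kinase domain, had 3.76, 2.92 and 3.64 TPM in wild type, against 4.32, 3.18 and 2.82 TPM in sme1-1. Both the highest and the lowest value were in sme1-1, and the means were 3.44 ± 0.456 and 3.44 ± 0.781 TPM. TMM had the widest interval of the 8, -0.36 to 0.35 around a log2 change of -0.01 (limma adjusted p = 0.966), and passed as lower only after quantile normalization (-0.50, adjusted p = 0.0217). SDD1 (chr1:1061297-1063809, minus strand), a subtilisin-like protease that limits stomatal number, stood at 0.820, 0.656 and 0.784 TPM in wild type, against 1.03, 0.808 and 0.886 TPM in sme1-1. Those ranges overlapped, and in a fit of all genes without the filter on low values its change was 0.12 with an interval of -0.05 to 0.30 (limma adjusted p = 0.209).

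In wild type the levels per transcript length ranked in the order SCRM, STOMAGEN, FAMA, EPF2, TMM, SPCH, EPF1, MUTE and SDD1. Neighbours in that order whose library values overlapped were SCRM and STOMAGEN, EPF2 and TMM, TMM and SPCH, and EPF1 and MUTE. In sme1-1 EPF2 stood below TMM and SPCH, and MUTE above EPF1, but the ranges of TMM, SPCH, EPF2 and MUTE overlapped from each to the next, as did those of MUTE and EPF1. Both genotypes therefore held SCRM, STOMAGEN and FAMA far above the other 6 genes.

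Ratios between genes of the same library do not change when each library is scaled by a single factor, as in median-of-ratios scaling. They compare the successive regulators directly, but quantile normalization, which is not such a scaling, can change them. The ratios here are of deposited TPM. After quantile normalization the log2 changes of FAMA and SPCH were -0.49 and -0.42, against -0.26 and 0.09 on deposited TPM. With 3 libraries against 3 the exact two-sided permutation test over the 20 assignments cannot give a p below 0.1, so no ratio can pass 0.05, and adjusted over the 11 ratios computed the smallest value was 0.183. FAMA relative to SPCH was 7.33, 6.13 and 5.90 in wild type and 4.97, 4.90 and 4.79 in sme1-1. The sme1-1 libraries were close together and all below wild type, with a log2 difference of -0.39 (exact permutation p = 0.1, the smallest possible). FAMA relative to MUTE was 13.7, 10.2 and 7.74 in wild type and 6.16, 7.72 and 4.64 in sme1-1. It was lower in sme1-1, with a log2 difference of -0.74 and the groups just apart at 7.74 and 7.72 (exact permutation p = 0.1). With 1 TPM added to each term, the difference of FAMA to MUTE was -0.59 (exact permutation p = 0.2). Without single libraries it ranged from -0.93 to -0.53, and the difference of FAMA to SPCH from -0.45 to -0.29. Each was smallest in size without wild-type library 1, in which FAMA was highest. The pairs share FAMA, so they are not separate evidence. MUTE relative to SPCH was 0.536, 0.603 and 0.762 in wild type and 0.808, 0.635 and 1.03 in sme1-1, and there the groups overlapped (log2 difference 0.35, exact permutation p = 0.2, and 0.18 without sme1-1 library 3).

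**Figure D3:**
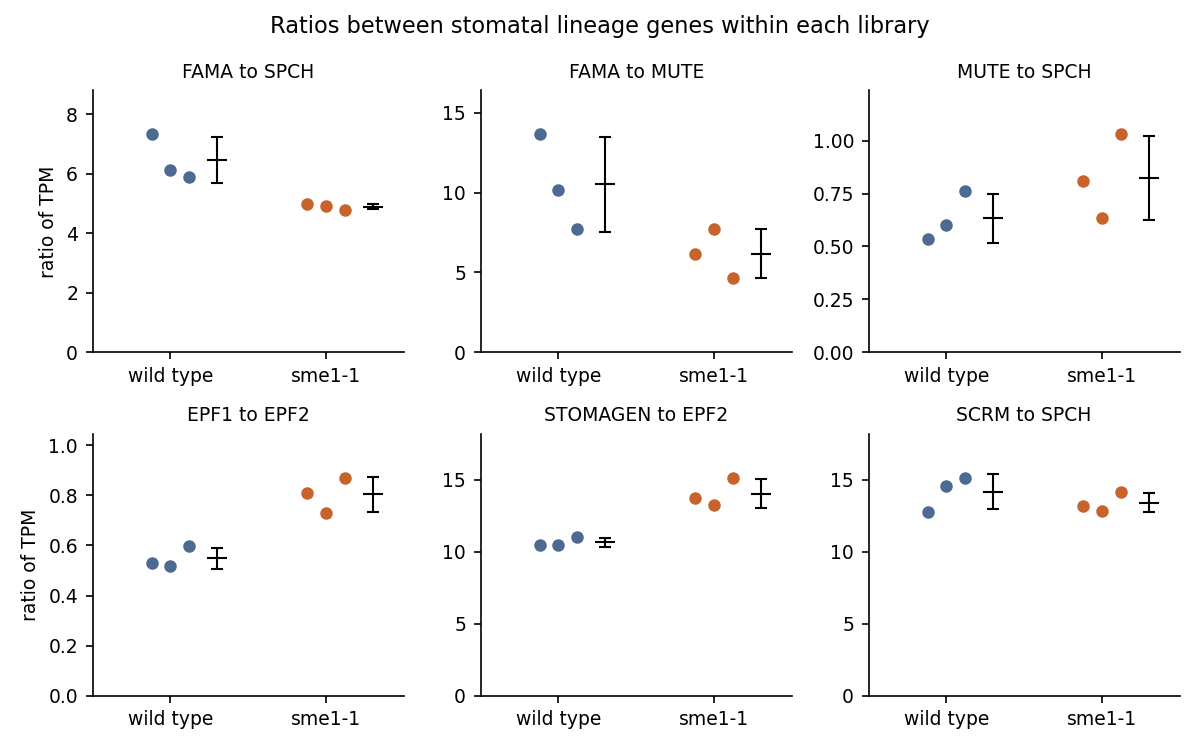
Ratio of the TPM of pairs of stomatal lineage genes within each library (vertical axes, each starting at 0); points are libraries and bars the mean ± SD of 3. The genotypes are apart for FAMA to SPCH (5.90 to 7.33 against 4.79 to 4.97), FAMA to MUTE, EPF1 to EPF2 and STOMAGEN to EPF2, and overlap for MUTE to SPCH and SCRM to SPCH.

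The peptides were set against each other in the same way. EPF1 relative to EPF2, the later-acting peptide against the earlier one, was 0.530, 0.516 and 0.598 in wild type and 0.811, 0.732 and 0.871 in sme1-1. STOMAGEN relative to EPF2, the promoting against the limiting peptide, was 10.4, 10.5 and 11.0 in wild type and 13.7, 13.2 and 15.1 in sme1-1. Both ratios were higher in every sme1-1 library than in any wild-type library, by 0.53 and 0.39 on the log2 scale (exact permutation p = 0.1 for each). The pairs share EPF2, so they are not separate evidence. SCRM relative to SPCH (12.8, 14.6 and 15.1 against 13.2, 12.8 and 14.1) and TMM relative to SPCH overlapped between genotypes, with log2 differences of -0.07 and -0.12 (exact permutation p = 0.5 and 0.6).

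SPCH was also set against markers of dividing and of epidermal cells. Of 14 markers of dividing cells, 9 rose and none fell on deposited TPM, beside 47.3% of all genes higher, with summed levels of 111 to 127 TPM in wild type and 137 to 159 TPM in sme1-1. Median-of-ratios scaling left 2 of them higher and 2 lower, and quantile normalization 1 higher and 3 lower. SPCH relative to that sum was 0.0239, 0.0244 and 0.0211 in wild type and 0.0209, 0.0207 and 0.0199 in sme1-1, lower without overlap, with a log2 difference of -0.18 (exact permutation p = 0.1). SPCH relative to 11 summed epidermal markers had a log2 difference of -0.98, and the LTP1 transcript, which encodes a lipid transfer protein, rose within that sum from 384 ± 21.5 to 1224 ± 149 TPM. With LTP1 left out, a step chosen after the data were seen, the ratio overlapped between genotypes with a difference of -0.04 (exact permutation p = 0.7). The part of these cell types in the levels of the 9 genes was not tested.

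The lineage genes have few transcript forms. The deposited annotation gives a single transcript for MUTE, EPF1, TMM and SDD1, and TMM and SDD1 hold no intron. SPCH, FAMA and EPF2 have 2 forms each, and SCRM and STOMAGEN 5 each, of which 4 forms of STOMAGEN and 1 of EPF2 come from the transcript assembler scallop. Since the mutated gene encodes a spliceosomal protein, the forms were compared as well, from the deposited TPM per transcript. The balance of forms was tested in 3 of the genes, and none passed (limma diffSplice, adjusted p = 0.125 for SCRM, 0.407 for FAMA and 0.438 for STOMAGEN), while 23.2% of 9382 genes tested did. Of the 3, SCRM alone had an unadjusted p under 0.05.

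Introns that some forms keep and others remove were tested for 6 introns of these genes, and none passed (limma on the log ratio of retained to spliced TPM), while 4.44% of 16049 introns tested did, 3.61% (579 introns) as more retained in sme1-1 and 134 introns as less. Of the 6, 1 had an unadjusted p under 0.05. It is a 247-base intron of SCRM (chr3:9834889-9835135), which lies upstream of the coding sequence, in the 5′ UTR. The transcript that keeps it, AT3G26744.1, and the main spliced form, AT3G26744.2, share a coding sequence of 1485 bases. Retained TPM made up 14.9%, 14.5% and 11.9% of the retained and spliced sum in wild type and 21.5%, 28.8% and 19.2% in sme1-1. Every sme1-1 library lay above every wild-type library, with library 2 the highest, and the means were 13.7 ± 1.65% and 23.2 ± 5.05%. The change of the log2 ratio was 0.90 with an interval of 0.20 to 1.59 (limma adjusted p = 0.123), beside a median of 0.26 over all introns tested.

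The ends of this intron and of an intron of STOMAGEN are printed because they are the sites at which retained and spliced forms part, from the RefSeq TAIR10.1 genome on the minus strand, 5′ to 3′, with the first or last dinucleotide of the intron in capitals. They stand at chr3:9835121-9835145 and chr3:9834884-9834908 for SCRM and at chr4:7586693-7586717 and chr4:7586568-7586592 for STOMAGEN.
SCRM donor: gaaatctgggGTatgtgttcaatga
SCRM acceptor: ttgttttcaaacttttgcAGaattg
STOMAGEN donor: gtagttcaagGTctcattctttcac
STOMAGEN acceptor: gttcttgttttttgaaccAGcctca
The SCRM intron opens with GTATGT, as do 4.35% of 141684 nuclear introns of the annotation, whereas the STOMAGEN intron opens with GTCTCA, as do 0.0749%. Both close with CAG, as do 62.6% of all introns.

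The STOMAGEN intron (135 bases, chr4:7586573-7586707) lies inside the coding span. Its retained share was 15.1%, 16.4% and 12.8% in wild type and 16.5%, 19.0% and 16.2% in sme1-1, overlapping by a narrow margin at wild-type library 2. The change of the log2 ratio was 0.27 with an interval of -0.31 to 0.84 (limma adjusted p = 0.521). A 525-base intron of FAMA (chr3:8715565-8716089) was kept at 7.42%, 11.1% and 10.4% in wild type and at 11.9%, 11.5% and 10.3% in sme1-1. The coding sequence annotated for the form that keeps it, AT3G24140.2, ends within the intron and has 1209 bases in place of 1245. Its change was 0.27 (interval -0.37 to 0.90, limma adjusted p = 0.563), and the remaining 3 introns, all of SCRM, had adjusted p of 0.673 or more.

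**Figure D4:**
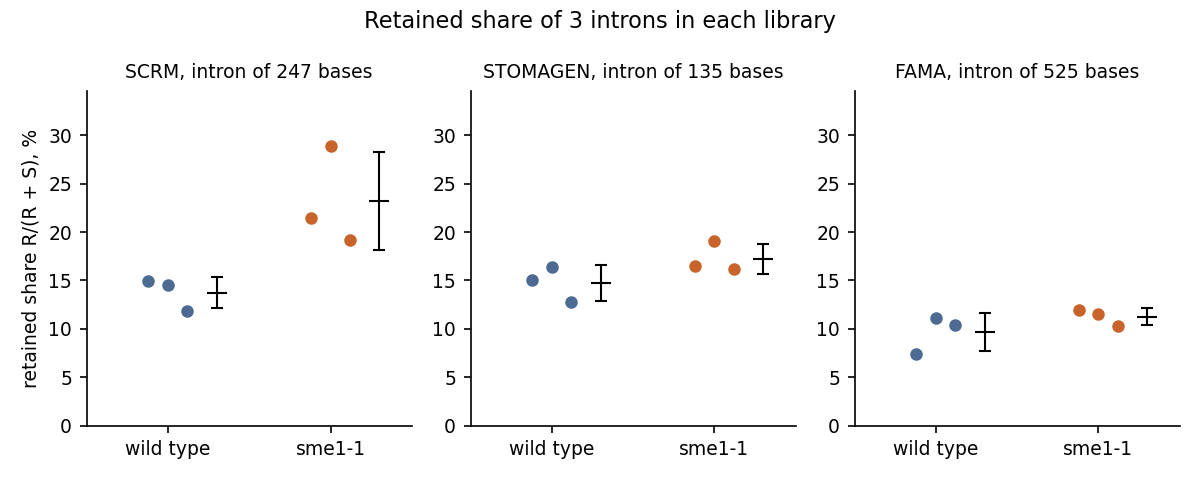
Retained TPM as a percentage of the retained and spliced sum (vertical axis, from 0) for an intron each of SCRM, STOMAGEN and FAMA; points are libraries and bars the mean ± SD of 3. The SCRM libraries are apart, 11.9% to 14.9% in wild type and 19.2% to 28.8% in sme1-1, and those of the other introns overlap.

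Small choices of splice site were also recorded. EPF2 has a pair of acceptors 3 bases apart within its coding span, printed here from chr1:12473408-12473437 (plus strand) with the AG of each acceptor in capitals.
EPF2 acceptors: cttgttgtaatgtggtgaAGaAGgaaataa
The form that uses the first acceptor, AT1G34245.1, made up 57.9%, 21.1% and 18.0% of EPF2 in wild type and 28.2%, 17.9% and 38.3% in sme1-1. Libraries of a genotype differed by more than the genotypes did, and 1 wild-type library held the highest share. The shorter SPCH form, AT5G53210.2, was listed at 0 in wild-type library 2, at 18.9% and 3.79% in wild-type libraries 1 and 3, and at 14.8%, 20.5% and 18.5% in sme1-1, so its ranges overlapped as well. These 2 genes were not tested for usage, since neither had 2 forms with a mean of at least 1 TPM.

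The wider pathway was described by 45 other genes written down from general knowledge, of which 37 were tested, 19 passed as higher, 6 as lower and 12 did not pass. The median change was 0.29, beside 0.22 for all genes and 67.3% passing among all genes, so the share of the list that passed was near the background. The split depended on the scaling, with 12 genes higher and 12 lower once median-of-ratios scaling was used and 7 higher and 13 lower with quantile normalization. Except for ERECTA, the pathway genes named next kept their sign under both other scalings. Except for ERECTA, RBR1 and the polarity gene BASL they also passed under both, a statement that leaves out IDD16 because of how it entered. Of the 37, ERL1 and IDD16 averaged under 1 TPM in wild type and reached the minimum level through sme1-1. The counts of genes passing as higher, here and for their groups, include them although they entered through the genotype in which they are high.

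**Figure D5:**
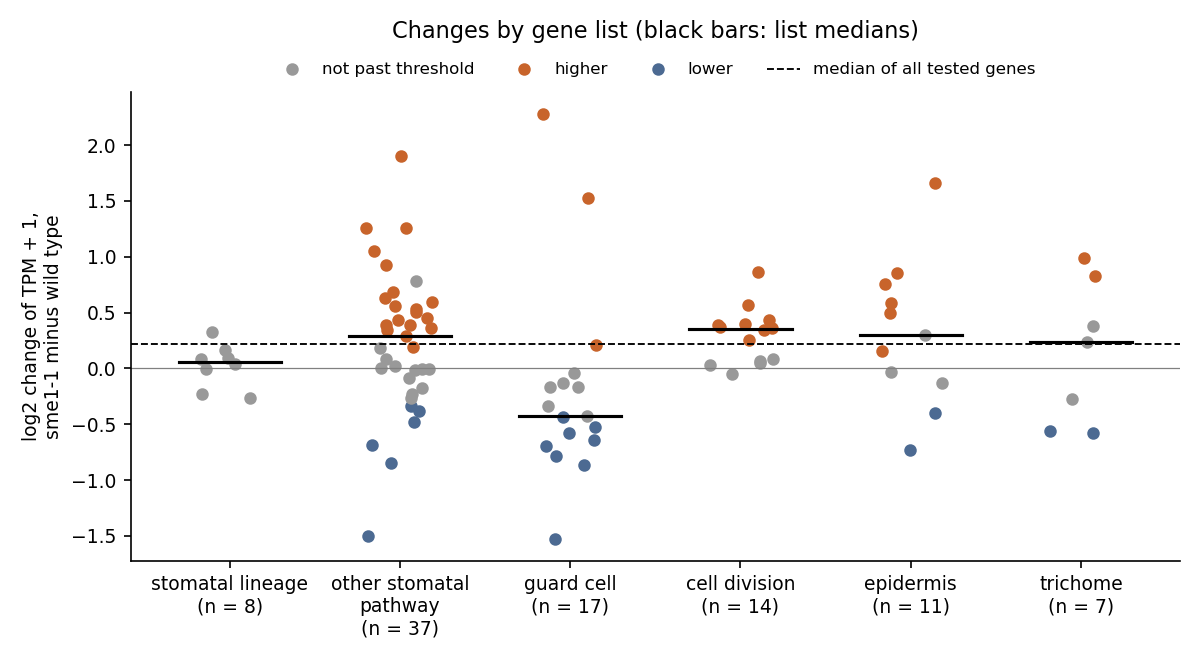
Difference of log2(TPM + 1), sme1-1 minus wild type (vertical axis), of each tested gene of the stomatal lineage, of the other stomatal pathway genes and of marker lists; orange and blue points passed the test as higher and lower, grey points did not, black bars are list medians and the dashed line is the median of all tested genes, 0.22. The 8 lineage genes lie close to 0 and none is coloured, while the pathway list runs from -1.50 to 1.90 and the guard cell list has a median of -0.42.

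The counts of each group that follow are on deposited TPM, on which 47.3% of 20100 genes passed as higher and 4024 genes as lower. With quantile normalization fewer genes of each group passed as higher. A gene of the peptide group then passed as lower (-0.53, limma adjusted p = 0.00524). Upstream of the receptors, the peptide group had 5 tested of 9, with 4 higher and none lower. ATSBT5.2 (AT1G20160), a subtilisin-like protease known for acting on EPF2, rose from 2.26 ± 0.578 to 11.3 ± 2.97 TPM (log2 change 1.90, limma adjusted p = 0.000256). The EPF-like gene AT4G37810 rose from 2.26 ± 0.718 to 5.68 ± 0.907 TPM (1.05, limma adjusted p = 0.00205). All 3 sme1-1 libraries were above all wild-type libraries in both genes.

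Of the 7 receptors and co-receptors, 3 rose and 2 fell. ERL2, a kinase of the ERECTA family, rose from 2.13 ± 0.199 to 6.53 ± 0.973 TPM (1.26, limma adjusted p = 0.000134), and SERK4, a co-receptor kinase, fell from 56.2 ± 18.9 to 18.5 ± 1.69 TPM (-1.50, adjusted p = 0.0014). ERECTA itself, named after its value was seen, had 33.4 and 38.3 TPM and did not pass (0.19, limma adjusted p = 0.0687, and -0.08 after median-of-ratios scaling). In the kinase cascade, 2 of 7 tested genes rose and 1 fell, MPK6, a MAP kinase that acts on SPCH, from 64.7 ± 3.35 to 46.3 ± 1.97 TPM (-0.48, limma adjusted p = 0.000563).

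Regulators that act on this cascade or on SPCH gave 3 higher and 2 lower of 7 tested. BIN2, a GSK3-like kinase of brassinosteroid signalling, fell from 235.2 ± 5.31 to 130.3 ± 2.32 TPM (-0.85, limma adjusted p = 2.8e-05), and the phosphatase gene BSL1 fell from 35.0 ± 2.57 to 21.4 ± 0.595 TPM (-0.68, adjusted p = 0.000194). COP1, the ubiquitin ligase of light signalling, rose from 15.3 ± 0.492 to 30.1 ± 1.83 TPM (0.93, limma adjusted p = 5.3e-05). IDD16, a zinc finger factor reported to hold SPCH down, rose from 0.743 ± 0.278 to 3.14 ± 0.316 TPM (log2 change 1.26). It reached the minimum level only through sme1-1, so no p is given. Of 3 polarity genes 1 rose on deposited TPM and none fell, whereas with quantile normalization BASL and POLAR were lower (-0.72 and -0.75, limma adjusted p = 0.00356 and 0.00125), and POLAR also with median-of-ratios scaling (-0.48, adjusted p = 0.008); they were named after their values were seen.

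Among 6 partners and late factors, 4 rose and 1 fell. FLP, a MYB protein that, like FAMA, limits the last division, rose from 10.5 ± 0.716 to 16.4 ± 0.572 TPM (0.59, limma adjusted p = 0.000363). RBR1, the retinoblastoma-related protein, which binds FAMA, rose from 13.5 ± 0.352 to 17.4 ± 0.0784 TPM (0.35, limma adjusted p = 0.00123) but did not pass under the other scalings (0.09 and 0.12). Both tested division genes rose on deposited TPM, but neither passed with quantile normalization. The 8 root markers summed to 127 to 202 TPM in wild type and 269 to 517 TPM in sme1-1, mostly through PYK10 (153 ± 40.8 and 341 ± 115 TPM). The other 7, of which IRT1 was the highest (0.645 ± 0.381 and 18.0 ± 5.98 TPM), averaged under 1 TPM in wild type, so that no count of passing root markers is given, and no root marker was at 0 in all libraries. Their part in the changes of the pathway genes, and of the guard cell genes below, was not tested.

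Genes of mature guard cells, the end of the lineage, passed more often as lower than as higher in sme1-1. Of 19 listed, 17 were tested, 8 passed as lower and 3 as higher, and the median change was -0.42, while of all 20100 genes 4024 passed as lower and 9505 as higher. The split was 13 lower and 2 higher with median-of-ratios scaling and 11 lower and 2 higher with quantile normalization, beside 35.3% and 36.3% of all genes lower, and the genes named below passed with the same sign under each. The gibberellin-regulated family gene AT1G22690, whose promoter is used to mark guard cells, fell from 187.5 ± 3.07 to 65.6 ± 15.5 TPM (-1.53, limma adjusted p = 0.000297). MYB60, a guard cell transcription factor, fell from 16.7 ± 1.93 to 10.3 ± 0.525 TPM (-0.64, adjusted p = 0.000969), and the kinase gene HT1, known from the response to CO2, from 5.44 ± 1.17 to 2.52 ± 0.444 TPM (-0.86, limma adjusted p = 0.00278).

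The inward potassium channel genes KAT1 and KAT2 fell as well, from 11.5 ± 1.60 to 8.19 ± 0.328 TPM and from 3.49 ± 0.681 to 1.99 ± 0.218 TPM (-0.44 and -0.58, limma adjusted p = 0.00802 and 0.00712). So did SCAP1, a Dof factor of guard cell maturation (7.96 ± 1.14 to 5.20 ± 0.444 TPM), and the MAP kinase gene MPK9 (37.9 ± 3.87 to 21.5 ± 1.38 TPM), with changes of -0.53 and -0.78 (limma adjusted p = 0.00498 and 0.00032). Against them, the outward potassium channel gene GORK rose from 4.97 ± 0.181 to 16.4 ± 3.46 TPM (1.53, limma adjusted p = 0.000183). AKS1, a helix-loop-helix factor that promotes KAT1 expression, rose from 18.4 ± 1.36 to 93.6 ± 13.8 TPM (2.28, limma adjusted p = 2.5e-05).

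FAMA relative to the summed guard cell list without the very abundant myrosinases TGG1 and TGG2, a step chosen after the data were seen, was 0.0569, 0.0416 and 0.0393 in wild type and 0.0480, 0.0541 and 0.0420 in sme1-1. The genotypes overlapped, with a log2 difference of 0.08 (exact permutation p = 0.7). That sum mixes opposite changes, since AT1G22690 fell within it from 187.5 to 65.6 TPM and AKS1 rose from 18.4 to 93.6 TPM. The ratio therefore does not show whether FAMA followed the guard cell genes.

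Genes whose 6 values followed those of a lineage gene most closely were found among tested genes with a wild-type mean within 2-fold of it, by the root mean square difference of log2(TPM + 1) from the wild-type mean. For SPCH the nearest of 4273 genes was FRI at 0.0206, then CPK31 and AT3G16350. For MUTE the nearest of 3391 was PUP4 at 0.0492, then AT1G72140 and LSH9. For FAMA the nearest of 7221 was AT5G67640 at 0.0600, then AT1G14300 and AT3G13800. Over 6 libraries and so many candidates, near matches describe these libraries and no more.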

How the data were processed

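Shoot RNA was made into stranded mRNA libraries and read as paired ends of 150 bp, per the labels' protocols. The deposited values are TPM per gene and per transcript, made by the authors. The submitters' processing notes list STAR (2.5.2b) and kallisto (0.43.0) without their roles and without a genome build. Summed over transcripts, the TPM matched each of the 37869 gene values to 0.01 TPM. TPM keep no depth, and shares of forms depend on how reads were divided among transcripts. On RefSeq TAIR10.1, which gave symbols and positions (counted from 1) for 37573 identifiers, 99.44% of the 141684 nuclear introns of the deposited annotation had GT or GC at the start and AG at the end.

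All 6 libraries entered each fit, with no covariate. Levels were tested with limma 3.58.1 under R 4.3.3 (trended empirical Bayes) on log2(TPM + 1), which understates the change of low genes, for genes averaging 1 TPM or more. Adjusted p are Benjamini-Hochberg values over all genes tested, with a threshold of 0.05. Usage was tested with diffSplice (Simes p) on transcripts averaging 1 TPM or more. Retention was tested on log2((R + 0.1)/(S + 0.1)), R being the TPM of transcripts that hold the intron in an exon and S that of transcripts that splice out exactly it, where R + S averaged 2 TPM or more and the retained share lay between 0.02 and 0.98. Ratios, with 0.1 TPM added to each term, were tested by an exact two-sided permutation test. The limma tests of levels, usage and retention were checked on simulated data, and the permutation test was not. In the simulated levels only a small part of the genes changed, unlike in these data. The 9 members, the gene lists, written from memory, and the tests were chosen with earlier results of these data known. Named genes were the 9 members, SME1, pathway and guard cell genes past the threshold with a log2 change of at least 1 in size, up to 6 more of each list by adjusted p, and the 3 nearest genes to SPCH, MUTE and FAMA. All others were named after their values were seen. Alternatives were another pseudocount, scaling and filter, a replicate block and leaving out each library.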

Additional observations from a re-analysis of the deposited data

How the results depend on the processing

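Lineage genes passing as lower numbered 0 on deposited TPM, 3 with median-of-ratios scaling and 5 with quantile normalization, and those passing as higher numbered 0, and 1 with a replicate block. Leaving out single libraries gave 0 to 1 higher and 0 lower. The sign reversed for SPCH (-0.12 and -0.42), SCRM (-0.23 and -0.061), EPF1 (-0.015 and -0.37) and STOMAGEN (-0.17 and -0.0093) under median-of-ratios scaling and quantile normalization in turn, and for MUTE (-0.21) under the latter. TMM, near 0, ranged from -0.14 to 0.093 over the fits without single libraries. Pathway genes numbered 12 higher and 12 lower with median-of-ratios scaling, 7 higher and 13 lower with quantile normalization, and 12 higher with a minimum of 5 TPM, where fewer genes are tested. Guard cell genes numbered 13 lower with median-of-ratios scaling. All genes numbered 9505 higher and 4024 lower on deposited TPM, 7103 lower with median-of-ratios scaling, and 6116 higher and 7293 lower with quantile normalization. Without single libraries, the log2 ratio change of retention ranged from -0.45 to 0.069, -0.52 to 0.16 and -0.078 to 0.62 for the SCRM introns of 182, 79 and 295 bases, the log2 difference between genotypes in the ratio of MUTE to SPCH from 0.18 to 0.52, that of TMM to SPCH from -0.33 to -0.017, that of SCRM to SPCH from -0.14 to -0.026, that of SPCH to epidermis without LTP1 from -0.12 to 0.031, and that of FAMA to guard cell without the myrosinases from -0.026 to 0.24. No intron or usage test of these genes passed under any alternative run. A pseudocount of 0.1 TPM and no filter left the counts of lineage genes at 0. The cause of these differences was not tested.

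The labels give no shared source for same-numbered libraries, and their deviations correlated by less than 0.1 (0.0168, 0.0562 and 0.0322), so they were treated as sharing only a number, although each of the 6 libraries correlated best with its own number, a hint of pairing from the data. With the replicate block MUTE passed as higher (0.33, adjusted p = 0.0471), and the other 7 genes did not pass. Depth is unknown, and SDD1, below 1 TPM, rests on very low values.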

Other observations

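Other fates of the leaf epidermis were not described above, and the genes in this paragraph were named after their values were seen. Of 7 tested trichome genes, 2 rose and 2 fell, a share no higher than the 67.3% of all genes that passed. The helix-loop-helix gene EGL3 rose from 1.58 ± 0.141 to 4.12 ± 0.0978 TPM (log2 change 0.99, limma adjusted p = 0.000115), and ETC1, a small MYB gene that restrains trichome fate, rose from 1.84 ± 0.250 to 4.02 ± 0.312 TPM (0.82, limma adjusted p = 0.000503). TTG1, a WD40 protein that works with EGL3, fell from 58.3 ± 7.43 to 38.6 ± 1.70 TPM (-0.57, limma adjusted p = 0.00211), and the homeodomain gene GL2 fell from 4.53 ± 0.704 to 2.74 ± 0.148 TPM (-0.56, limma adjusted p = 0.00387). All 4 passed with the same sign under both other scalings.

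Of 11 epidermal genes, 6 rose and 2 fell, a share near the 67.3% of all genes that passed, and median-of-ratios scaling gave 4 higher and 4 lower. ATML1, a homeodomain factor of epidermal identity, fell from 43.1 ± 3.67 to 25.6 ± 1.99 TPM (-0.73, limma adjusted p = 0.000382), while its relative PDF2 rose from 36.4 ± 1.09 to 40.8 ± 1.84 TPM on deposited TPM (0.16, limma adjusted p = 0.0423) and took the other sign after median-of-ratios scaling (-0.11, adjusted p = 0.145). The cuticle genes LACS2 and DCR rose under every scaling, from 14.5 ± 0.422 to 27.1 ± 1.18 TPM and from 21.4 ± 0.841 to 36.9 ± 3.19 TPM (0.86 and 0.75, limma adjusted p = 5e-05 and 0.000191). FDH, of the same list, fell under every scaling, from 89.5 ± 11.2 to 67.6 ± 6.13 TPM (-0.40, limma adjusted p = 0.0143). The part of cell composition in these values was not tested.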
